A study of Mus musculus with 4 samples.

Results

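The cytotoxic effector genes examined here were Gzma, Gzmb, Gzmk, Prf1, Ifng, Nkg7, Fasl, Ccl5, Xcl1 and Ccl4, 10 of the 29835 genes listed over the 4 single-cell libraries of the series. They were chosen by name, as products with which T cells and natural killer (NK) cells kill or signal. Earlier results of these data were known when they were chosen. All 10 were listed in the BTYNB and combination libraries. Their levels were read in cells gated by unique molecular identifiers (UMIs, counts of captured RNA molecules). A CD8 T cell had at least 2 UMIs of Cd3d, Cd3e and Cd3g together and at least 1 of Cd8a and Cd8b1. A CD4 T cell met the same Cd3 condition, with at least 1 UMI of Cd4 and 0 of Cd8a and Cd8b1. An NK cell had at least 2 UMIs of Ncr1, Klrb1c and Klre1 together and at most 1 of the Cd3 genes.

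All mice carried ID8-Trp53-/- cells, a mouse ovarian surface epithelial line without Trp53, injected into the peritoneum of C57BL/6 animals and left to engraft for 7 days. They were then treated until about 3 mL of ascites had formed, and the tumour and immune cells were profiled. BTYNB, a small-molecule inhibitor of the RNA-binding protein IGF2BP1, was given with an IgG control antibody in the BTYNB group and with a PD-1 blocking antibody (clone RMP1-14) in the combination group. The control group received DMSO and the IgG control antibody, and the anti-PD-1 group received DMSO and the PD-1 blocking antibody. The labels give 50 mg/kg BTYNB and 100 ng of antibody per dose, whereas other amounts stand in the methods of the study. Animals were pooled into 1 library per group, so no difference between treatments has a replicate check and no test was made.

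Cytotoxic lymphocytes hold perforin and granzymes in secretory granules and release them onto a target cell. Perforin opens the target membrane, and granzymes, a family of serine proteases, pass through and start cell death. The same cells can kill through Fas ligand, secrete interferon gamma, which raises antigen presentation in tumour cells, and release chemokines that attract further leukocytes.

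Levels are given as CPM (UMIs of the gene per 1000000 UMIs of the gated cells) with exact 95% Poisson intervals. Shares of cells carry exact 95% binomial (Clopper-Pearson) intervals. Ratios carry the exact interval of the corresponding share of UMIs. Each interval covers counting error only, and UMIs of a gene within a cell are not independent, so the spread between animals is unknown. Members were compared between gates and libraries and not with each other, since CPM takes no account of transcript length.

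Promoter sequences are shown for the members that carried the letters TCACAC, the core to which T-box factors such as T-bet and Eomes bind, because these factors direct the effector programme and Eomes itself differed between the gates and libraries described below. RefSeq promoters of build GRCm38.p6 were given for 8 of the 10 members, with Ccl5 and Ccl4 not analysed here. Within the 250 bases before the gene start, TCACAC on either strand was found for 4 of these 8 members and for 12.3% of all 32851 promoters of the same length. Gzma, Prf1, Ifng and Fasl had 0 matches. Each line gives 30 bases, 5′ to 3′ on the strand of the gene, with the match in capitals (GTGTGA is the same letters on the opposite strand).
Gzmb, chr14:56262335-56262364, minus strand: gttacttcatgattcTCACACaagtactca
Gzmk, chr13:113181022-113181051, minus strand: ttgaaaccttggGTGTGAaaaatctaacgt
Gzmk, chr13:113180997-113181026, minus strand: aacgtctgggacGTGTGAggtgagaaacct
Nkg7, chr7:43437108-43437137, plus strand: agggagggggtagggaagGTGTGAgaagaa
Xcl1, chr1:164935692-164935721, minus strand: ggtctcatgttgGTGTGAacaaggcaaagg
The match ended 9 bases before the start of Gzmb, 68 and 43 bases before that of Gzmk, 6 bases before that of Nkg7 and 181 bases before that of Xcl1. A match of letters is a description and does not show binding.

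After removal of cells with few genes or many mitochondrial UMIs, 18283 BTYNB and 7042 combination cells were left, with medians of 2622 and 9510 UMIs per cell. The BTYNB library reached down to cells of 869 UMIs and combination did not. Ratios between these libraries were therefore read in cells with at least the UMIs of the smallest deposited combination cell, called the depth floor here. Values printed side by side without this floor are not such a comparison. The CD8 T gate held 1230 BTYNB cells (6.73% of cells, interval 6.37 to 7.10%) and 94 combination cells (1.33%, 1.08 to 1.63%). The CD4 T gate held 410 and 19 cells, and the NK gate 685 and 49. At or above this floor, 122 CD8 T, 42 CD4 T and 118 NK cells of BTYNB remained. Control had only 8, 2 and 11 gated cells and anti-PD-1 22, 1 and 14. Between any pair of libraries at most 4 cell numbers were shared, and 0 of these belonged to gated cells.

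The gates were checked against markers that they did not use. All 8 T cell markers (Trac, Trbc2, Cd2, Cd5, Lck, Thy1, Cd28 and Cd247) had UMIs in both T gates of both libraries, and all 8 NK markers in both NK gates. Summed T markers came to 3089 CPM in BTYNB CD8 T and 1687 CPM in combination CD8 T cells. Summed NK markers came to 5478 and 2605 CPM in the NK gates. In the NK gate, Trdc, listed as a gamma-delta T cell gene, had a UMI in 25.7% of BTYNB cells. The T markers, Cd247 among them, summed to 1416 CPM there. These values do not tell T cells from NK cells that carry such RNA, so the purity of the gate was not tested. Myeloid markers summed to 430 CPM in BTYNB CD8 T cells, 856 CPM in those at or above the floor and 2278 CPM in combination CD8 T cells. Cells were called mixed by their markers of tumour, myeloid or B cells. A single list of these had to hold at least 3 UMIs and at least 0.1% of all UMIs of the cell. Mixed cells made up 14.6% of BTYNB CD8 T cells, 50% of those at or above the floor and 62.8% of combination CD8 T cells. Their part in the results was not tested beyond the values without them given below.

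Of the BTYNB cells, 76.2% of CD8 T, 48.3% of CD4 T and 99.3% of NK cells had at least 1 UMI of a member. Depth differs between gates and libraries, so each cell was also thinned to 1000 UMIs, with 9 CD8 T, 3 CD4 T and 5 NK cells of BTYNB left out as shallower. The shares were then 66.2%, 35.1% and 94.9% in BTYNB and 62.8%, 15.8% and 79.6% in combination. At or above the floor the thinned BTYNB shares were 66.4% (57.3 to 74.7%), 40.5% (25.6 to 56.7%) and 87.3% (79.9 to 92.7%). The combination intervals, 52.2 to 72.5%, 3.38 to 39.6% and 65.7 to 89.8%, overlapped these. Tumour-gated cells had at least 5 UMIs of Krt8, Krt18 and Krt19 together, at most 1 of the Cd3 genes and no UMI of Ptprc. When thinned, those with a member made up 1.30% in BTYNB and 0.932% in combination. Since that gate leaves out cells with Ptprc, these shares do not measure how much RNA of other cells entered the T and NK gates. Thinned myeloid-gated cells gave 16.0% and 15.9%. Thinned B cells gave 3.72% and 3.44%. In tumour-gated cells, with medians of 16514.5 UMIs in BTYNB and 11648 in combination, Ccl5 stood at 9.39 and 10.4 CPM, and the other members did not pass 1.74 CPM.

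**Figure D1:**
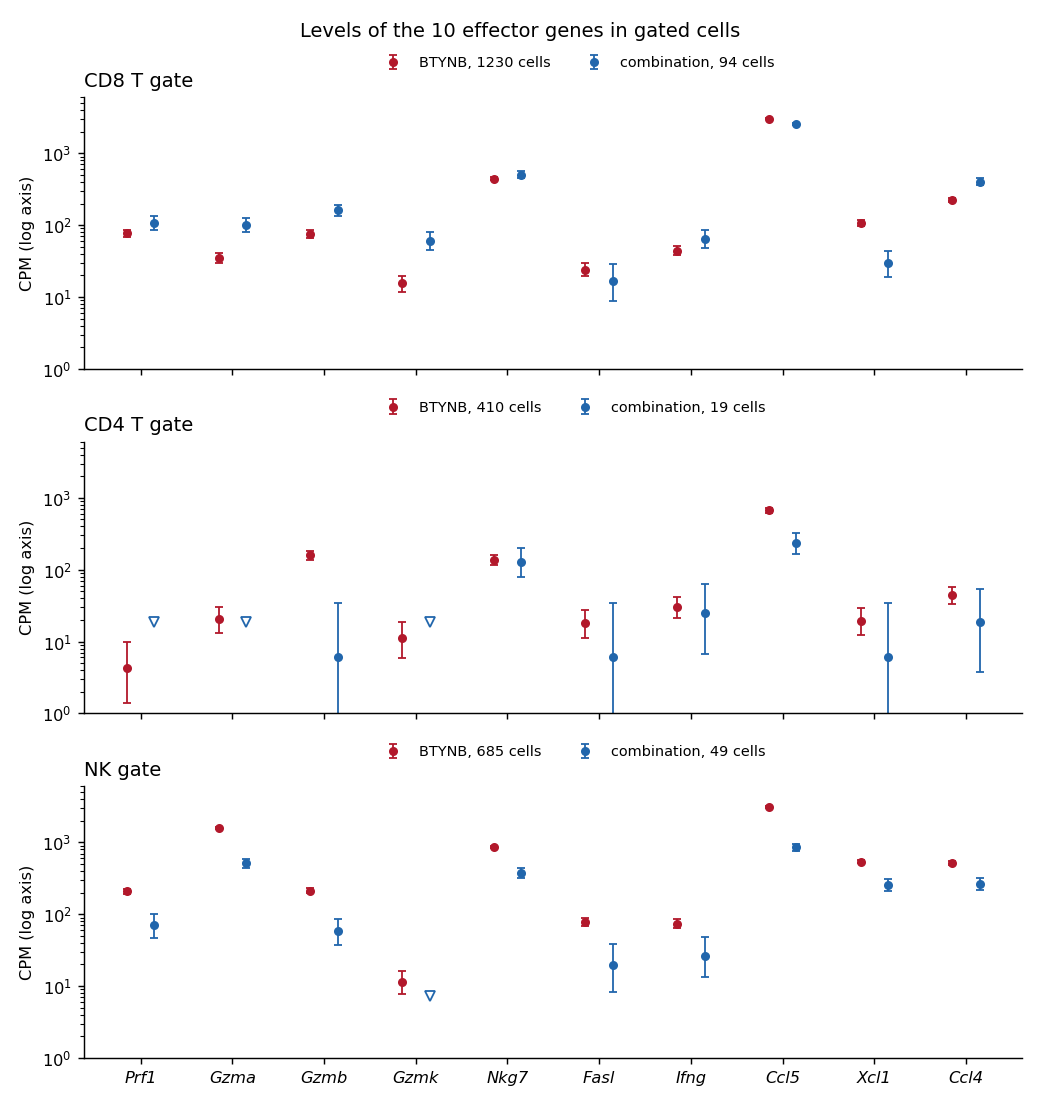
Level of each member in CPM (log axis) in the CD8 T, CD4 T and NK gates of the BTYNB (red) and combination (blue) libraries, all gated cells, with exact 95% Poisson intervals for counting error. Open triangles mark genes with 0 UMIs, at the limit of 3 UMIs. In BTYNB the NK gate lay above the CD8 T gate most clearly for Gzma (1599 against 35.1 CPM), and in combination Gzmk had 0 UMIs in the NK gate against 60.4 CPM in CD8 T cells.

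Granule proteins are described first. Prf1, which encodes perforin, stood at 208 CPM (192 to 226) in BTYNB NK cells, 76.6 CPM (68.1 to 85.8) in CD8 T cells and 4.25 CPM (1.38 to 9.92) in CD4 T cells. The CD4 T value rests on 5 UMIs in 5 of 410 cells. Combination cells gave 70.2 CPM in NK and 107 CPM in CD8 T cells, and 0 UMIs in 19 CD4 T cells, which allows up to 18.5 CPM. Perforin transcripts therefore lay in the NK and CD8 T gates of both libraries. In combination these gates did not differ beyond counting error (log2 NK against CD8 T -0.60, -1.27 to 0.02).

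Gzma, a granzyme that cuts after basic residues, lay mostly in the NK gate of BTYNB. Its level was 1599 CPM (1552 to 1648) in NK cells, 35.1 CPM (29.4 to 41.5) in CD8 T cells and 20.4 CPM (13.1 to 30.3) in CD4 T cells. It had a UMI in 69.5% of NK cells but only in 3.09% of CD8 T and 1.22% of CD4 T cells. The NK gate held 87.3% of all Gzma UMIs of the BTYNB library. Combination NK cells stood at 511 CPM and CD8 T cells at 102 CPM, where 3 of 94 cells held 79.7% of the 79 UMIs.

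Gzmb, the granzyme that cuts after aspartate and activates caspases, had another order, with 214 CPM (197 to 232) in BTYNB NK cells, 158 CPM (136 to 182) in CD4 T cells and 75.3 CPM (66.9 to 84.4) in CD8 T cells. The intervals of these 3 gates did not overlap. In combination the level was 162 CPM (135 to 193) in CD8 T cells and 58.1 CPM (37.2 to 86.5) in NK cells, and a single UMI was found in CD4 T cells. Few cells carried most of it there, since 3 cells held 61.1% of the CD8 T and 70.8% of the NK UMIs. Gzmb belongs to a cluster of similar granzyme genes, and reads shared with its neighbours could have been split between them by the counting.

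Gzmk, a further granzyme of basic specificity known from CD8 memory cells, was low in all BTYNB gates, at 15.5 CPM (11.8 to 19.9) in CD8 T, 11.0 CPM (5.88 to 18.9) in CD4 T and 11.4 CPM (7.72 to 16.1) in NK cells, and these intervals overlapped. In combination it was 60.4 CPM (44.4 to 80.4) in CD8 T cells, with UMIs in 23 of 94 cells, and 0 UMIs were found in 19 CD4 T and 49 NK cells. The limits that these zeros allow are 18.5 CPM in CD4 T and 7.26 CPM in NK cells. Of the 58 Gzmk UMIs of the combination library, 81.0% lay in the CD8 T gate.

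Nkg7, a granule membrane protein needed for degranulation, was found in 90.5% of BTYNB NK cells, 50.6% of CD8 T and 17.6% of CD4 T cells. Its levels were 866 CPM (831 to 902), 440 CPM (420 to 462) and 138 CPM (117 to 161). Combination cells gave 375, 507 and 129 CPM. Outside lymphocytes, it stood at 128 CPM in the BTYNB cells gated as neutrophils.

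The other killing pathway and the cytokine were sparser. Fasl, the ligand of the death receptor Fas, was 78.0 CPM (67.9 to 89.2) in BTYNB NK, 24.0 CPM (19.4 to 29.4) in CD8 T and 17.8 CPM (11.0 to 27.3) in CD4 T cells. Ifng, which encodes interferon gamma, was 74.0 CPM (64.1 to 84.9), 44.3 CPM (38.0 to 51.5) and 30.6 CPM (21.4 to 42.4). For both genes the NK gate was highest and the intervals of the T gates overlapped. In combination, Fasl rested on 13 CD8 T, 1 CD4 T and 8 NK UMIs, and Ifng on 50, 4 and 11.

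The chemokines were found in every gate of both libraries. Ccl5, which attracts T cells and monocytes, was 3102 CPM (3036 to 3169) in BTYNB NK cells, 3044 CPM (2990 to 3100) in CD8 T cells and 669 CPM (623 to 717) in CD4 T cells. The first pair did not differ beyond counting error. It accounted for 74.5% of the UMIs of all members in CD8 T and 43.0% in NK cells. In combination the level was 855 CPM in NK, 2570 CPM in CD8 T and 234 CPM in CD4 T cells.

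Xcl1, the ligand of XCR1 on cross-presenting dendritic cells, was 542 CPM (515 to 570) in BTYNB NK, 109 CPM (98.7 to 120) in CD8 T and 19.5 CPM (12.4 to 29.3) in CD4 T cells. The CD8 T level rested on few cells, since 1 cell held 105 of the 422 UMIs. Combination NK cells stood at 254 CPM, and CD8 T cells at 29.6 CPM from 4 cells. Ccl4, a CC chemokine like Ccl5, was 518 CPM (491 to 545), 223 CPM (209 to 239) and 44.2 CPM in the BTYNB NK, CD8 T and CD4 T gates. Both chemokines had the order NK, CD8 T, CD4 T there, while Ccl4 in combination was 400 CPM in CD8 T and 261 CPM in NK cells.

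How NK and CD8 T cells differed could be asked within a library, where preparation was shared. In BTYNB, 6 of the 10 members were at least 2-fold higher in the NK gate and 0 were at least 2-fold lower, against 5.28% and 5.35% of the 11605 genes compared (those with at least 20 UMIs in both groups together). The median of the members was 1.33 on the log2 scale, against 0.04 over all genes. Gzma led with a log2 ratio of 5.51 (5.27 to 5.77), followed by Xcl1 at 2.32, Fasl at 1.70, Gzmb at 1.51, Prf1 at 1.44 and Ccl4 at 1.21. Nkg7 (0.98) and Ifng (0.74) were higher by less than 2-fold, and the intervals of Gzmk (-0.45) and Ccl5 (0.03) included 0. With the 3 cells richest in the gene left out of each gate, Gzma was 6.13.

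This pattern depended on the depth of the cells. At or above the floor, 3 members stayed at least 2-fold higher in BTYNB NK than CD8 T cells, with a background of 3.88% higher and 3.75% lower among 9609 genes, and the median of the members was -0.00 against 0.02 over all genes. The 3 were Gzma at 4.49 (4.06 to 4.94), Xcl1 at 1.28 and Fasl at 1.27. Gzmb was lower in the NK gate at -0.76 (-1.11 to -0.42), as were Ccl5 at -0.55 and Ccl4 at -0.53. Prf1 at 0.14 and Ifng at -0.59 had intervals that included 0, and Nkg7 was 0.25.

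Combination cells all lay at or above the floor. There, 2 members were at least 2-fold higher in NK than CD8 T cells and 4 at least 2-fold lower, against 3.72% and 5.41% of 7579 genes, with a median of -0.61 against 0.01 over all genes. Xcl1 at 3.10 (2.44 to 3.82) and Gzma at 2.33 (1.95 to 2.72) were higher. Gzmb at -1.48, Ifng at -1.27 and Ccl5 at -1.59 were lower, and Gzmk was at least 8.32-fold lower, against a floor of 3 UMIs over the NK gate. Gzma and Xcl1 were thus the members that lay above 2-fold in the NK gate of both libraries and at both depths of BTYNB.

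CD8 T cells were set against CD4 T cells only in BTYNB, where both gates held enough cells. There 5 members were at least 2-fold higher in CD8 T cells and 1 at least 2-fold lower, against 5.75% and 3.86% of 11041 genes, and the median was 1.23 against -0.06 over all genes. Prf1 was highest at 4.17 (2.93 to 5.81), then Xcl1 at 2.48, Ccl4 at 2.34, Ccl5 at 2.19 and Nkg7 at 1.68. Gzmb went the other way at -1.07 (-1.34 to -0.80). CD4 T cells therefore carried Gzmb with hardly any Prf1.

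Most of this CD4 T Gzmb lay in cells with a UMI of Foxp3, the lineage factor of regulatory T cells. The 67 Foxp3+ cells of BTYNB had 167 Gzmb UMIs, or 645 CPM, and the 343 cells without Foxp3 had 19 UMIs, or 20.7 CPM, a log2 ratio of 4.96 (4.27 to 5.73). Foxp3+ cells were deeper, with medians of 3021 against 1980 UMIs. At or above the floor, where medians were 7288 and 7205, 11 Foxp3+ cells stood at 871 CPM and 31 cells without at 43.1 CPM, a ratio of 4.34 (3.47 to 5.34). Most of the 108 Gzmb UMIs of these 42 cells lay in a few cells, as given below with the library ratios. The interval takes no account of this.

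Gzmb was the 1 member of the 8 that passed the filter to be at least 2-fold higher in Foxp3+ cells, against 5.36% of 7185 genes. Nkg7 was lower there at -1.82 (-2.80 to -0.97) and Ccl5 at -1.04 (-1.37 to -0.73). Ifng had 0 UMIs in Foxp3+ cells against 36 in the others, Fasl 0 against 21 and Xcl1 0 against 23. Prf1 was at 2 against 3 UMIs, and Ccl4 was at -0.07 (-1.18 to 0.91). At the floor, Nkg7 (-4.44) and Ccl5 (-4.67) were again lower, while Ccl4 was higher at 3.07 (1.12 to 5.57) on 10 against 3 UMIs. Among the 19 combination CD4 T cells, 9 were Foxp3+, and 1 Gzmb UMI was found in them, so the Gzmb contrast could not be read in that library. Ccl5 went the other way there, at 1.23 (0.21 to 2.32) on 25 against 13 UMIs.

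Pdcd1 encodes PD-1, the receptor that the antibody of the combination group blocks. In BTYNB, 59 of 1230 CD8 T cells had a Pdcd1 UMI, and 8 of the 10 members were at least 2-fold higher in them, against 9.23% of 10449 genes. Their Gzmb level was 588 CPM against 31.4 CPM in the others (log2 4.23, 3.88 to 4.58), and Gzma (3.59), Prf1 (3.44), Ccl4 (3.17), Xcl1 (2.21) and Nkg7 (2.04) were more than 4-fold higher. Ccl5 was 0.69, and the interval of Fasl (0.79) included 0. Pdcd1+ cells were deeper, with medians of 4286 against 2293 UMIs, and at or above the floor the 22 Pdcd1+ cells had 813 against 41.5 CPM of Gzmb (4.29, 3.80 to 4.81).

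In the combination library 7 of the 9 members that passed the filter were at least 2-fold higher in Pdcd1+ cells, against 7.93% of 6077 genes. Its 22 Pdcd1+ CD8 T cells, of 94, had 600 CPM of Gzmb against 51.5 CPM (3.54, 2.95 to 4.17) and 453 CPM of Prf1 against 19.3 CPM (4.55, 3.66 to 5.57). Ifng (3.21), Ccl4 (2.82), Nkg7 (2.38), Gzmk (1.93) and Ccl5 (1.77) were also higher, at medians of 6487.5 and 7576 UMIs. Gzma at 0.61 (-0.17 to 1.35), Xcl1 at 0.79 and Fasl at 0.25 included 0. Whether the ratios differed between the libraries was not tested.

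**Figure D2:**
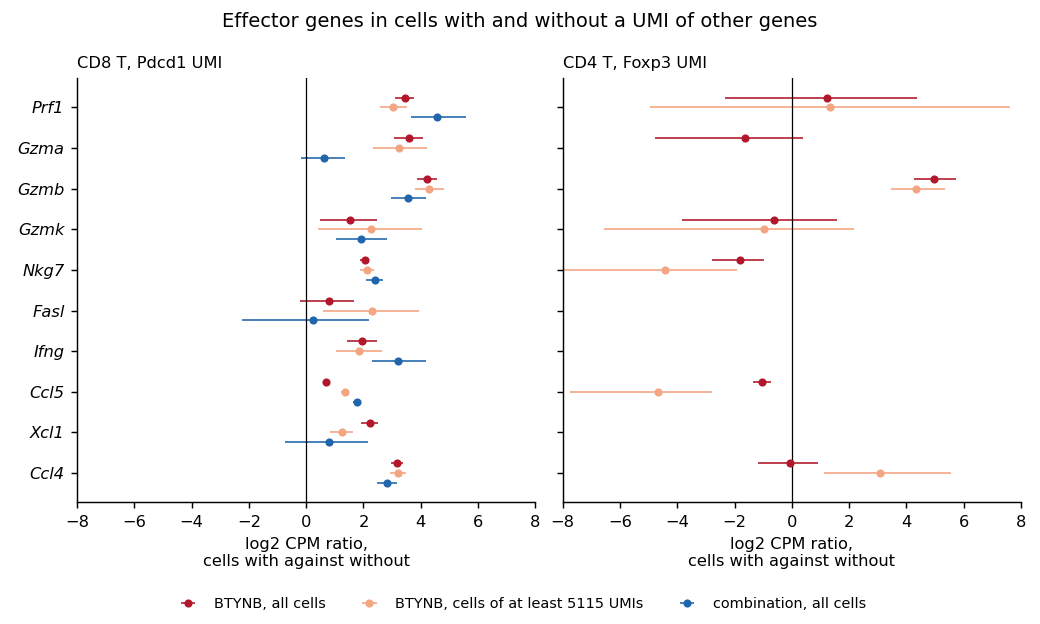
Log2 ratio of CPM between cells with and without a UMI of Pdcd1 (CD8 T gate) or of Foxp3 (CD4 T gate), with exact 95% intervals for counting error, in all BTYNB cells (red), BTYNB cells at or above the depth floor (orange) and, for Pdcd1 alone, combination cells (blue). Ratios with 0 UMIs on a side are not drawn, and intervals that pass -8 are clipped. Gzmb lay between 3.54 and 4.29 in Pdcd1+ CD8 T cells and at 4.34 and 4.96 in Foxp3+ CD4 T cells.

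Cells with UMIs of the cycling genes Mki67 and Top2a were compared in the same way, and 7 of the 10 members were at least 2-fold higher in the cycling CD8 T cells of BTYNB, against 7.56% of 10449 genes. These 200 cells had more Xcl1 (2.53, 2.23 to 2.84), Gzma (2.43), Gzmb (2.37) and Ccl4 (2.16) than the 1030 others, whereas Ccl5 was at -0.14. The cycling cells were deeper, at a median of 3809.5 against 2214.5 UMIs. At or above the floor the ratios were 3.86 for Xcl1 (236 against 14 UMIs), 3.61 for Ccl4 and 1.96 for Gzmb. At both depths the cycling cells include the single cell richest in Xcl1 described above. The Xcl1 intervals take no account of this. In BTYNB NK cells 0 of the 10 members were at least 2-fold higher in the 206 cycling cells, against 5.81% of 9601 genes, and Ccl5 was lower at -1.14 (-1.22 to -1.07). This changed at the floor, where the 79 cycling NK cells had more Xcl1 (1.01, 0.70 to 1.32), Fasl was 1.18 (-0.12 to 2.74) and Ccl5 was 0.19.

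Granzymes shared cells. Of 75 BTYNB CD8 T cells with Gzmb, 22.7% also had Gzma and 22.7% Gzmk, against 1.82% and 1.73% of the cells without Gzmb. Prf1 was found in 40% of them against 6.49%. The Gzmb+ cells had a median of 3612 UMIs and the others 2293, and the part of depth in this was not tested. In combination, where Gzmb+ cells were the shallower (medians 6460 and 7744), all 21 also had Nkg7 and Ccl5, 61.9% had Gzmk against 13.7% of the others and 42.9% had Gzma against 2.74%.

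In BTYNB NK cells, 42.0% carried Gzma alone of these granzymes, 23.6% Gzma with Gzmb and 28.3% none. Gzmb was found in 35.7% of Gzma+ cells and 7.18% of the others, at medians of 2894.5 and 3073 UMIs. All 26 NK cells with Gzmk also had Gzma, and 0 of 685 cells had Gzmk alone, which allows a share of up to 0.438%. The CD8 T gates looked different, with no granzyme UMI in 90.7% of BTYNB and 66.0% of combination cells.

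**Figure D3:**
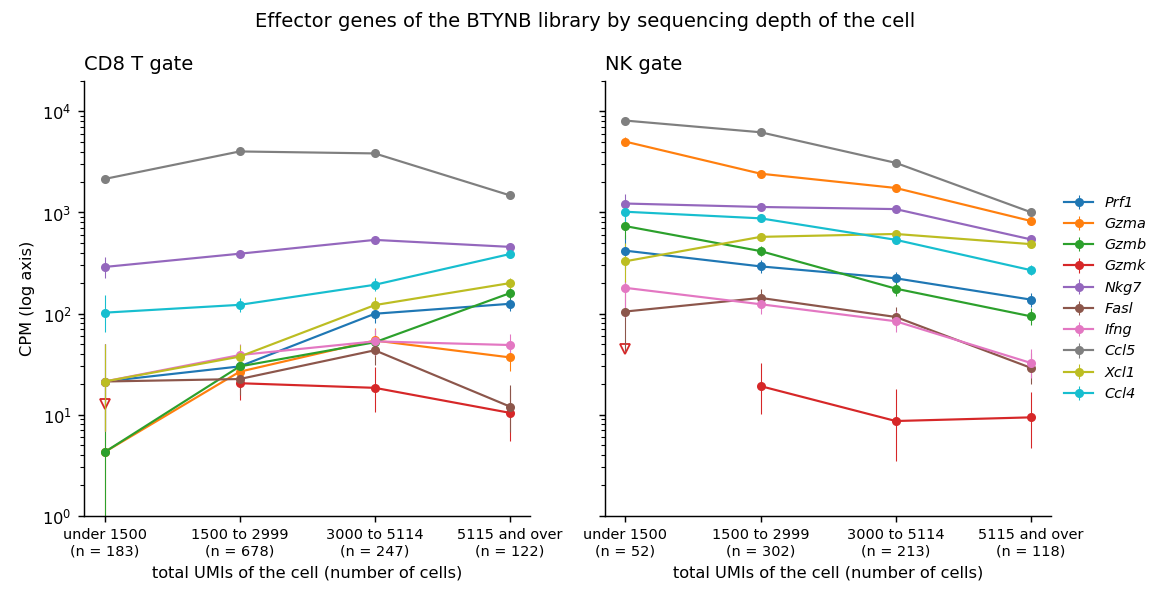
CPM of each member (log axis) in BTYNB cells of the CD8 T and NK gates by the total UMIs of the cell, with exact 95% Poisson intervals and the number of cells under each band. An open triangle marks 0 UMIs at the limit of 3 UMIs. From the lowest to the highest band, Gzma in NK cells went from 5026 to 824 CPM, while Gzmb in CD8 T cells went from 4.25 to 159 CPM.

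Most members were lower in deeper NK cells of BTYNB, whereas several were higher in deeper CD8 T cells. Across bands of under 1500 UMIs, 1500 to under 3000, 3000 to the floor, and the floor and above, Gzma in NK cells was 5026, 2421, 1749 and 824 CPM. Ccl5 was 8122, 6224, 3099 and 1007 CPM, and Gzmb went from 733 to 93.8 CPM. Xcl1 had another course, at 329, 574, 613 and 486 CPM. Over the same bands the NK markers went from 8825 to 3252 CPM and the tumour markers from 194 to 1191 CPM, so more than the members differed.

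In CD8 T cells several members lay higher in the deeper bands. Gzmb went from 4.25 CPM in the lowest band to 51.9 and 159 CPM in the upper pair, Prf1 went from 21.2 to 125 CPM, Xcl1 from 21.2 to 200 CPM and Ccl4 from 102 to 388 CPM. Ccl5 was 2146, 4019, 3843 and 1477 CPM, and Fasl did not pass 43.3 CPM in any CD8 T band, while it went from 105 to 29.0 CPM in NK cells. Cycling genes went from 38.2 to 550 CPM over these bands. A deep CD8 T cell and a shallow CD8 T cell of this library thus differed in more than depth.

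Ratios of combination against BTYNB, which ask what the PD-1 blocking antibody added to BTYNB, were read in cells at or above the floor unless stated. With fewer cells per gate and bulk sums over them, more cells with a gene and more RNA per cell cannot be told apart in a CPM. Among CD8 T cells, 2 members were at least 2-fold higher and 1 at least 2-fold lower in combination, against 2.54% and 2.52% of 9222 genes, with a median of 0.27 against 0.00 over all genes. Gzmk was 60.4 against 10.4 CPM (47 and 13 UMIs, log2 2.54, 1.63 to 3.55), with UMIs in 24.5% (16.2 to 34.4%) of combination and 5.74% (2.34 to 11.5%) of BTYNB cells.

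Gzma was 102 against 36.8 CPM (79 and 46 UMIs, 1.47, 0.92 to 2.02), but 3 cells held 79.7% of the combination and 78.3% of the BTYNB UMIs. Xcl1 was 29.6 against 200 CPM (23 and 250 UMIs, -2.76, -3.44 to -2.14), and 3 cells held 95.7% and 59.2%. Ccl5 was 2570 against 1477 CPM (0.80, 0.71 to 0.89). Gzmb (162 against 159 CPM), Prf1 (107 against 125 CPM), Nkg7 (507 against 457 CPM), Ifng, Fasl and Ccl4 had intervals that included 0. The widest of these was Fasl, from -0.71 to 1.65, and the interval of Gzmb ran from -0.31 to 0.35.

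Values without the cells in question were as follows. With the mixed cells defined above left out, which leaves 35 combination CD8 T cells, Gzmk was 3.08, Gzma 1.79, Ccl5 0.89 and Xcl1 -2.89. Without the 3 cells richest in the gene on each side, a setting chosen after seeing the data, Gzmk was 3.55, Gzma 1.37, Ccl5 0.69 and Prf1 -1.07. For Xcl1 this setting leaves 1 UMI in combination, so no value is read from it. Gzmk and Gzma therefore kept their side of the 2-fold line in both settings. Over every gated cell, without the floor, Ccl5 turned to -0.24.

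NK cells gave another pattern. All 9 members that passed the filter were lower in combination, and 0 were past 2-fold in either direction, against 3.22% higher and 5.07% lower among 8460 genes. The median was -0.58 against -0.03 over all genes. Prf1 was 70.2 against 137 CPM (-0.97, -1.59 to -0.39), Xcl1 254 against 486 CPM (-0.94), Gzma 511 against 824 CPM (-0.69, -0.91 to -0.47), Gzmb 58.1 against 93.8 CPM (-0.69), Nkg7 375 against 542 CPM (-0.53) and Ccl5 855 against 1007 CPM (-0.24), with intervals below 0. Ifng, Fasl and Ccl4 included 0. Gzmk had 0 UMIs in combination and 11 in BTYNB. NK markers also differed, at 2605 against 3252 CPM, as did myeloid markers at 1762 against 509 CPM. Mixed cells, by the limits given with the markers above, made up 65.3% of combination and 28.8% of BTYNB NK cells at or above the floor. NK values with these cells left out are not given here, and the part of such cells and markers was not tested. Over every NK cell without the floor, the median was -1.52.

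CD4 T cells allowed 3 members to be read. Gzmb was lower in combination, with 1 UMI in 19 cells against 108 in 42 cells (-5.50, -10.81 to -2.99), as 1 member at least 2-fold lower and 0 higher beside a background of 6.22% lower and 5.22% higher among 4710 genes. The median of the 3 was -0.53 against 0.02 over all genes. Of the BTYNB UMIs, 74.1% lay in 3 cells. Foxp3+ cells made up 11 of the 42 and 9 of the 19 cells. Nkg7 (-0.16) and Ccl5 (-0.53, -1.09 to 0.00) did not pass 2-fold.

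**Figure D4:**
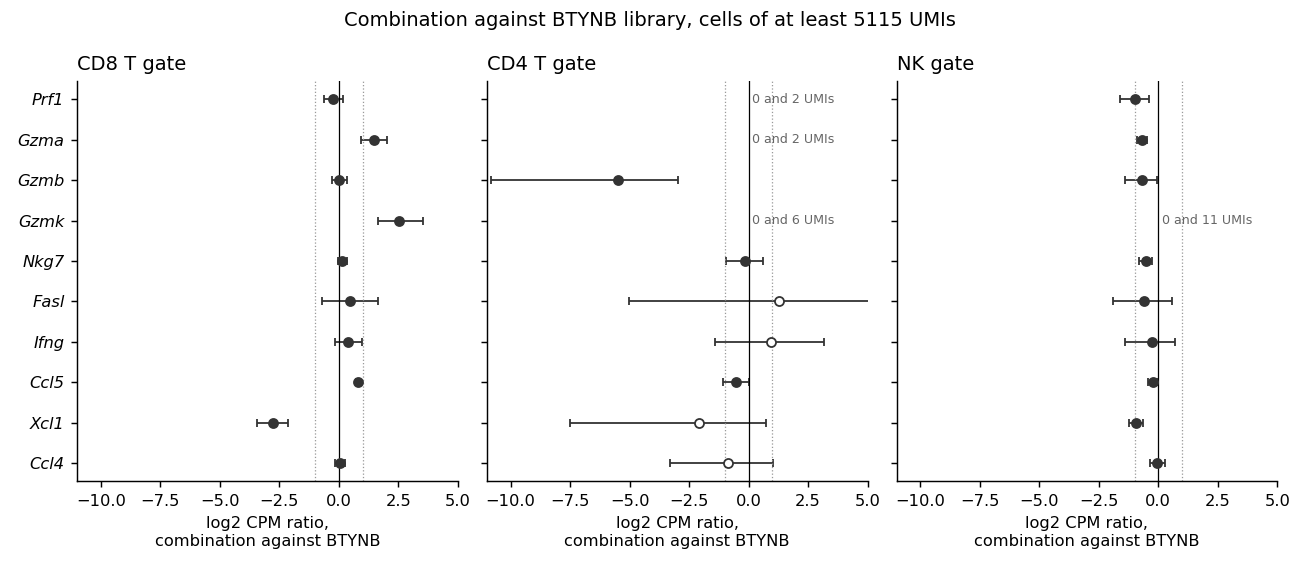
Log2 ratio of CPM, combination against BTYNB, for each member in gated cells at or above the depth floor, with exact 95% intervals for counting error and dotted lines at 2-fold. Open circles had fewer than 20 UMIs in both libraries together, and a gene with 0 UMIs in combination is given by its UMIs (combination and BTYNB). Gzmk (2.54) and Gzma (1.47) lay above and Xcl1 (-2.76) below the lines in CD8 T cells, and the drawn NK values lay between -0.97 and -0.04.

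**Figure D5:**
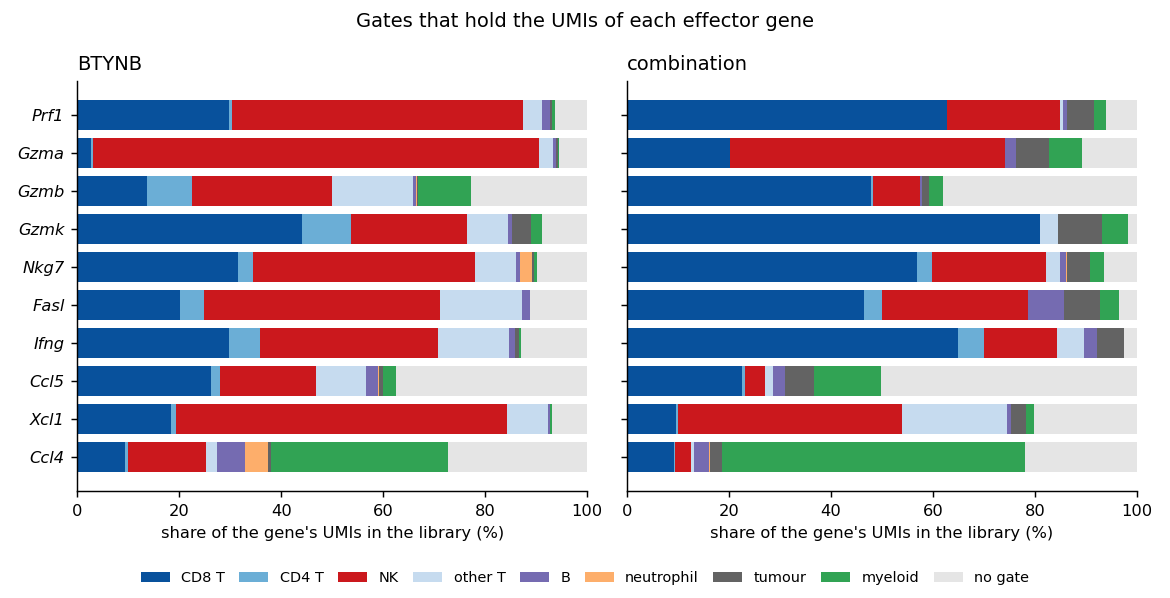
Share of each member's UMIs (% of the library) that lay in cells of each gate, for the BTYNB and combination libraries. In BTYNB the CD8 T, CD4 T and NK gates together held 90.5% of Gzma but 25.3% of Ccl4, and in combination 81.0% of Gzmk but 12.7% of Ccl4.

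These genes were not limited to T and NK cells. The CD8 T, CD4 T and NK gates held 90.5% of Gzma, 87.4% of Prf1, 84.2% of Xcl1 and 77.9% of Nkg7 UMIs in BTYNB. They held 50.0% of Gzmb, 46.7% of Ccl5 and 25.3% of Ccl4 UMIs. In combination the shares were 57.4% for Gzmb, 27.1% for Ccl5 and 12.7% for Ccl4. Ccl4 lay largely in myeloid-gated cells, with 34.7% and 59.3% of its UMIs at 210 and 209 CPM.

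Outside all T and NK gates, cell sets chosen after these values had been seen held much of the remainder. No depth floor was applied to these sets, so their levels are not matched between libraries. Cells with at least 1 UMI each of Ccr7 and Fscn1, genes of mature dendritic cells, had 5019 CPM of Ccl5 in 409 BTYNB cells, against 60.0 CPM in the remaining cells outside those gates. They held 30.2% of the Ccl5 of the library. In combination, 136 such cells had 3791 CPM and held 55.4%, with 18.7 CPM in the remaining cells. The same set stood at 787 CPM in 36 control and 166 CPM in 25 anti-PD-1 cells.

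Gzmb had its own outside source. Cells with at least 3 UMIs of mast cell and basophil markers had 1500 CPM of Gzmb in 28 BTYNB cells and 428 CPM in 12 combination cells, 24.2% and 21.7% of the Gzmb of each library. A Gzmb UMI was found in 25% and 16.7% of these cells. Their Prf1 was 2 UMIs in BTYNB and 0 in combination. Nkg7 stood at 144 CPM in 162 BTYNB cells with at least 3 UMIs of Mpo, Prtn3 and Elane, which are granule genes of early neutrophils, with 0 UMIs of Gzmb and Prf1, and at 6.32 CPM in 175 such combination cells.

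Genes that act with the members were read as lists: granule and exocytosis genes, other cytokines, transcription factors and receptors. In BTYNB, 4 of the 16 granule genes compared were at least 2-fold higher in NK than CD8 T cells and 1 was lower. Over all 11605 genes of that comparison, 5.28% were higher and 5.35% lower. Serpinb9b was highest at 7.12 (98 against 1 UMI), then the granzyme Gzmc at 3.15. Serpinb9, which inhibits granzyme B and protects the cell that makes it, was 2.23 and Serpinb6b 1.96, and Gzmm was lower at -1.12. The median of the list was 0.46 against 0.04 over all genes.

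Transcription factors of the effector programme had 3 of 13 genes at least 2-fold higher in NK cells and 2 lower. The shares over all genes were again 5.28% and 5.35%, also for the receptors and cytokines that follow. Eomes, also among the NK markers above, was 429 against 54.7 CPM (2.97, 2.76 to 3.19), Tbx21, which encodes T-bet, 1.87 and Bhlhe40 1.33. Lef1 was -1.78 and Tcf7 -1.03, both of them factors of naive and memory T cells. Of 8 receptors, 1 was at least 2-fold higher in NK cells, and Fas (-2.20), Ifngr2 (-1.23) and Ccr1 (-1.02) were lower. Of 6 cytokines, Ltb was lower (-1.18).

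Set against CD4 T cells, BTYNB CD8 T cells had 3 of 14 granule genes higher and 2 lower. Over all 11041 genes of this comparison, 5.75% were higher and 3.86% lower. The protease inhibitor Cst7 was 1.97 and the protease Ctsw 1.83, Gzmm had 34 against 0 UMIs, and Stx11 (-1.53) and Unc13d (-1.09), which act in granule fusion, were lower. Eomes was higher at 3.69, and Ikzf2 (-1.85) and Prdm1 (-1.52) were lower. Ccl3 was higher at 1.97 and Il10 lower at -1.98, and of the receptors Xcr1 was 1.89 and Ccr1 -1.10. Xcr1 is also a marker of the cross-presenting dendritic cells named above. The part of dendritic cell RNA in the T gates was not tested.

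In combination, 4 of 13 granule genes were at least 2-fold higher in NK than CD8 T cells: Gzmc (22 against 0 UMIs), Ctsw (1.55), Stxbp2 (1.16) and Serpinb9 (1.15). Eomes (1.46) and Tbx21 (1.69) were higher and Prdm1 (-1.96) lower. Of 5 cytokines, Ccl3 (-2.38), Ccl9 (-1.27) and Ltb (-1.16) were lower. Over all 7579 genes of this comparison, 3.72% were at least 2-fold higher and 5.41% lower.

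Between combination and BTYNB CD8 T cells at or above the floor, 0 of 13 granule genes passed 2-fold. Over all 9222 genes, 2.54% were at least 2-fold higher and 2.52% lower. Eomes was higher at 74.6 against 18.4 CPM (58 and 23 UMIs, 2.02, 1.30 to 2.78), as were Klf2 (1.13) and Zeb2 (1.12) among 13 transcription factors. Ccl9 was the cytokine of 5 that passed, at 1.02. Zeb2 and Ccl9 are also high in myeloid-gated cells, at 742 and 1152 CPM in BTYNB, and myeloid markers in this gate were 2278 against 856 CPM. NK cells had 0 of 14 granule genes past 2-fold, with Prdm1 lower (-1.30, -3.69 to 0.44) and Ccr1 higher (1.18). The shares in NK cells were 3.22% higher and 5.07% lower over all 8460 genes. In CD4 T cells, Cst7 (1.26), Stx11 (1.17), Klf2 (1.29), Ikzf2 (1.05) and Xcr1 (4.58) were higher and Ccr1 (-2.55) lower, all on 19 combination cells. For Xcr1, a dendritic cell marker, the part of dendritic cell RNA was again not tested. Of all 4710 genes compared there, 5.22% were higher and 6.22% lower.

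By UMIs captured, which does not rank genes per length, the 3 leading granule genes in BTYNB CD8 T cells were the granule proteoglycan Srgn (1027 CPM), Ctsc, the protease that activates granzymes (168 CPM), and Lyst (128 CPM). In BTYNB NK cells they were Srgn (1171 CPM), Serpinb6b (251 CPM) and Ctsw (237 CPM). Among cytokines Ccl3 led in both gates, at 187 and 259 CPM, followed by Ccl9 (65.5 and 39.2 CPM) and then Ltb in CD8 T (51.6 CPM) and Tnfsf10 in NK cells (34.1 CPM). The leading factors were Tcf7 (792 CPM), Klf2 (503 CPM) and Id2 (421 CPM) in CD8 T cells, and Id2 (778 CPM), Bhlhe40 (528 CPM) and Eomes in NK cells. Of the receptors, the interferon gamma receptor chain Ifngr1 stood at 576 CPM in CD8 T and 743 CPM in NK cells, and M6pr at 179 and 263 CPM.

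Likeness to the members was measured as Pearson r of log2(CPM + 10) over 16 gates of the BTYNB and combination libraries and 13695 genes, as a description, since these points share libraries and depth. The genes most like the sum of the members were Mtmr1 (0.951), Pitpnc1 (0.933), B4galnt1 (0.932), Hcst (0.930) and Prkch (0.925). The nearest single gene was Klra3 for Gzma (0.952), Il2rb for Ifng (0.973), Cst7 for Nkg7 (0.954), Sytl3 for Fasl (0.983) and Ccl3 for Ccl4 (0.932). It was Gm17745 for Gzmb (0.963), Ociad2 for Gzmk (0.897), 2900026A02Rik for Prf1 (0.936), Ptpn22 for Ccl5 (0.934) and Gm19585 for Xcl1 (0.960).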

How the data were processed

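Single cells of pooled ascites were captured on BD Rhapsody, and the authors deposited 1 matrix of raw UMI counts per library, with build GRCm39 in the submitters' processing notes. Deposited totals were between 78603888 and 114600397 counts. Cells with under 200 genes or over 33% of UMIs from mt- genes were removed. The study states the same limits but defines mitochondrial genes by MitoCarta, a wider set, so these filters differ. Multiplets were removed upstream by the authors according to the methods, and no doublet caller was run here. Members and lists were chosen with earlier results of these data known. The CD4 T gate was read as also needing Cd3. CPM, ratios and intervals were computed with Python 3.11.15, numpy 2.4.6, scipy 1.17.1 and pandas 2.3.3. A gene entered a comparison with at least 20 UMIs in both groups together, and a call is a ratio past 2-fold. Thinning to 1000 UMIs used seed 1. Ratio and interval code was tested on simulated data. All members were named in each gate, and of the other lists those past 2-fold and, for CD8 T and NK cells of BTYNB, the 3 highest, apart from items not reported here. Libraries are single, so no p-value was computed.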

Additional observations from a re-analysis of the deposited data

Results flagged for a closer look

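Several contrasts pointed in opposite directions in different gates or libraries, and with 1 library per group none of these differences was tested. Combination against BTYNB gave a log2 ratio of 1.47 for Gzma in CD8 T cells and -0.69 in NK cells. For Ccl5 it gave 0.80 in CD8 T and -0.24 in NK cells.

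NK against CD8 T cells, over all gated cells, gave 1.51 for Gzmb in BTYNB and -1.48 in combination, where BTYNB cells at or above the depth floor gave -0.76. The values for Ifng were 0.74 and -1.27, with -0.59 at that floor. Nkg7 stood at 0.98 and -0.43, with 0.25 at the floor. Ccl4 was 1.21 and -0.61, with -0.53 at the floor. For Gzmb, Ifng and Ccl4 the opposite directions were thus found between all BTYNB cells and combination, not between the libraries at matched depth, whereas Nkg7 kept them.

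The anti-PD-1 library, which the comparisons do not use, held 22 CD8 T cells with members above the level of the 8 CD8 T cells of control. Gzma was 274 CPM against 0 UMIs in control (interval up to 56.0 CPM), Gzmb 382.5 against 45.5 CPM, Nkg7 382.5 against 152 CPM, Ccl5 1896 against 395 CPM and Ccl4 441 against 45.5 CPM. At or above the floor, with 9 anti-PD-1 and 7 control cells, Gzma was 140 CPM, from 9 UMIs in 1 cell, and Gzmb 218 CPM (119 to 365) against 49.3 CPM (10.2 to 144), whose intervals overlap. Nkg7 was then 389 against 131 CPM, Ccl5 1353 against 394 CPM and Ccl4 498 against 16.4 CPM. Of the cells, 19 of the 22 in anti-PD-1 and 6 of the 8 in control were mixed, by the limits for tumour, myeloid or B cell markers given above.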

How the results depend on the processing

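No paired analysis was possible because each group is 1 pooled library, and no replicate could be left out. Of 314 member values under alternative settings, 236 stayed within the reported interval, 74 left it (67 with the same sign) and 4 reversed. The first count includes NK against CD8 T values of combination at the floor, which could not change because all combination cells lie there. Of the 20 values of that setting 11 stayed, 6 left the interval and 3 reversed, and those that left or reversed were all of BTYNB. Without the floor, Ccl5 in CD8 T cells, combination against BTYNB, reversed to -0.24, the NK median moved to -1.52, and 8 members in NK and 5 in CD4 T cells were 2-fold lower (9.98% and 13.6% of all genes). At the floor, NK against CD8 T in BTYNB reversed for Gzmb (-0.76), Ifng (-0.59) and Ccl4 (-0.53), its median moved to -0.0048, and 3 members were 2-fold higher. In the NK gate, combination against BTYNB, the members 2-fold lower numbered 3 by means over cells (5.74% of all genes), 1 without the filter on cells (5.38%) and 1 with stricter gates (6.03%). With cells of other markers left out, 3 members were 2-fold lower in CD4 T cells (8.44%). Leaving out the 3 richest cells, chosen after seeing the data, gave an NK median of -0.96 with 3 members 2-fold lower (12.8%), and 2 lower in CD8 T cells (4.41%). The CD8 T count includes Xcl1, which keeps 1 combination UMI in this setting and is not read. The causes were not tested. Stricter gates left 723 BTYNB and 62 combination CD8 T and 31 combination NK cells. Leaving out cells of other markers left 35 CD8 T, 11 CD4 T and 17 NK combination cells. A CD4 T gate without Cd3 held 689 BTYNB and 44 combination cells. Unthinned shares with any member were 76.2%, 48.3% and 99.3% of BTYNB CD8 T, CD4 T and NK cells and 89.4%, 73.7% and 100% in combination. Depth limits the combination CD4 T gate most, where 1 UMI is worth 6.15 CPM.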

Other observations

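In the NK gate of control, 11 cells held 53 Xcl1 UMIs, or 758 CPM (568 to 991), and 34 Gzma UMIs, or 486 CPM (337 to 679). A single cell held 29 of these Xcl1 UMIs, and the Gzma UMIs lay in 3 cells, with 24 in 1 of them. The 14 anti-PD-1 NK cells had 2 Xcl1 UMIs (22.7 CPM, 2.75 to 81.9) and 35 Gzmb UMIs (397 CPM) in 3 cells.

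The mast cell and basophil set had Gzmb in control as well, where 57 UMIs lay in 1 of 5 cells and made up 60.6% of the Gzmb of that library. In anti-PD-1, 0 Gzmb UMIs were found in 20 such cells.

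Neutrophil-gated cells of BTYNB held Ccl4 at 399 CPM and the related Ccl3 at 1019 CPM, in 492 cells. T cells of neither the CD8 nor the CD4 gate in BTYNB stood at 130 CPM for Gzmb and 14.3 CPM for Prf1, in 841 cells.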
